A study of Homo sapiens with 12 samples.

Results

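The 47 genes described here code for nucleolar ribosome biogenesis factors, the proteins that process ribosomal RNA and assemble the ribosomal subunits. They were chosen by name, with earlier results of these data known. All 47 matched an identifier of the count table, passed the filter on low counts and were tested. In all, 19662 genes were tested, of 60604 gene identifiers. By known role, 16 act on the small subunit, 19 act on the large subunit, 8 belong to the small nucleolar ribonucleoproteins (snoRNPs) or their assembly, and 4 are general nucleolar proteins. RNA was sequenced from HEK293T cells, a human embryonic kidney line that carries the SV40 large T antigen, in 3 groups of 4 libraries. One group was transfected with a plasmid for dCas9-VP160, a nuclease-dead Cas9 joined to a viral transcriptional activator, together with 6 guide RNAs for the CD34 promoter. Another group received the dCas9-VP160 plasmid without guides, and the last received no plasmid. Each treatment was done in 2 experiments that used different batches of cells, and each experiment gave 2 technical replicates per group. Transfection lasted 48 h with 5.4 pmol of plasmid in all.

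For the group that received no plasmid the labels differ, calling it untransfected in one place and treated with reagents only in another. As there was no plasmid control lacking dCas9-VP160, effects of plasmid DNA, of the protein and, under the first reading, of the reagents cannot be told apart. How the plasmid total was divided between dCas9-VP160 and guides is not stated in the labels, and every value is an average over transfected and untransfected cells of a dish.

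A ribosome is built in the nucleolus from a long precursor transcript made by RNA polymerase I, to which assembly factors bind while it is still being made. An early complex, the small-subunit processome, folds and cuts the part that becomes the 18S rRNA of the small subunit, and a separate set of factors matures the part that becomes the 5.8S and 28S rRNAs of the large subunit. The snoRNPs modify the rRNA, those with box C/D guide RNAs by methylation of the ribose and those with box H/ACA guide RNAs by pseudouridylation. Dividing cell lines such as HEK293T make ribosomes at a high rate, and many of these genes are known targets of MYC, a transcription factor that binds the hexamer CACGTG, the canonical E-box.

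RefSeq promoters (GRCh38.p14) running from 250 bases before to 50 bases after the start site were found for 38 of the 47 members, and CACGTG, which reads the same on both strands, was present in 15 of the 38 (39.5%). It was present in 7.26% of all 35116 promoters of the same table and in 8.34% of its 22199 protein-coding promoters. By role, it was found in 8 of 14 small-subunit promoters (57.1%), in 4 of 14 large-subunit promoters (28.6%), in 2 of 6 snoRNP promoters (33.3%) and in 1 of 4 general nucleolar promoters (25%). Of the 16 E-boxes in member promoters, 15 (93.8%) began between 20 bases before and 44 bases after the start site, against 565 of 2821 (20%) in all promoters. That window was chosen after the positions were seen. The E-box nearest the start site is printed for 4 members that rose in transfected cells and for 2 that were not called. The sequences run 5′ to 3′ on the gene's strand with the hexamer in capitals, and show how different the flanking bases are.
PNO1, chr2:68157885-68157914, plus strand: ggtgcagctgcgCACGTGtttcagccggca
LTV1, chr6:143843354-143843383, plus strand: gtcctggggctgCACGTGtggtgaggccta
PES1, chr22:30591880-30591909, minus strand: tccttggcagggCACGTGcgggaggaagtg
MYBBP1A, chr17:4555340-4555369, minus strand: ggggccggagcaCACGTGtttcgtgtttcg
UTP20, chr12:101280083-101280112, plus strand: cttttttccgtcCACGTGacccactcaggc
NOP10, chr15:34343130-34343159, minus strand: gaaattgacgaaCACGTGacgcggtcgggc
The hexamer began 9 bases after the start site in PNO1, 28 after it in LTV1, 13 after it in PES1 and 27 after it in MYBBP1A. It began 10 bases before the start site in UTP20 and 11 before it in NOP10. NOP10 has a further E-box that begins 170 bases before the start site, outside the window above, and is not printed. A match to these letters is a description of the promoter and says nothing of what binds there.

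Gene counts per library came to 6750035 to 11932244 over the 12 libraries, with 26115 to 28418 genes detected. CPM are counts scaled to a common library total, with normalisation between libraries for the members and CD34. A count of 0 allows a level of up to 0.251 to 0.444 CPM by library, without normalisation. Every member was far above that, with a mean of 9.65 CPM for the lowest. CD34, the guides' target, had 102.2 and 96.3 CPM with guides, 0.875 and 0.899 with dCas9-VP160 alone and 2.06 and 2.06 without plasmid in experiments 1 and 2, and was thus high in the libraries labelled with guides. Among markers of HEK293 cells NEFL (329 to 553 CPM) and VIM (246 to 367) were abundant while INA (2.32 to 7.93), LHX1 (2.57 to 5.51), NEFM (0.969 to 2.43) and PAX2 (0.244 to 1.06) were low. HBB was at 0 in every library and PTPRC reached at most 0.0547, CD3E 0.0952, PECAM1 0.274, CDH5 0.274, ALB 0.381 and APOA1 0.427. Mitochondrially encoded genes held 6.57% and 6.40% of counts with guides, 5.60% and 5.30% with dCas9-VP160 alone and 8.53% and 8.52% without plasmid. The spike-in share was 0.719% and 0.404% in the libraries without plasmid of experiment 1 and at most 0.00818% elsewhere.

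With dCas9-VP160 alone, 42 of the 47 factors were higher than without plasmid, none was lower and 5 were not called. The first question here was whether small-subunit, large-subunit and snoRNP factors did so alike. Called means an adjusted p under 0.05 in edgeR's quasi-likelihood test over all genes, a rule by which 26.6% of all tested genes were called higher and 24.6% lower. Among the 11207 genes with at least the mean CPM of the lowest member, 35.1% were called higher. The members were chosen with earlier results of these data known, so their share beside these is a description only. At an unadjusted p under 0.05 the number of members lower was also 0, and DESeq2 called 0 lower as well. The median log2 fold change of the 47 was 0.45 (1.36-fold, with quartiles of 0.28 and 0.64), beside a median of 0 over all tested genes (quartiles -0.29 and 0.29). The response was small for most: 15 members were more than 1.5-fold higher and 2 more than 2-fold.

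Small-subunit factors were higher in 14 of 16 cases with dCas9-VP160 alone, with a median log2 fold change of 0.49 and a range of 0.09 to 1.41. All 19 large-subunit factors were higher, with a median of 0.45 and a narrower range of 0.15 to 0.74, although the call on NIP7 was lost in 18 of 23 alternatives. Of the 8 snoRNP factors 6 were higher, with a median of 0.33 and a range of 0.01 to 0.62. Of the 4 general nucleolar proteins 3 were higher, with a median of 0.28 and a range of -0.05 to 1.01. In experiments 1 and 2 the medians were 0.54 and 0.48 for small-subunit, 0.51 and 0.46 for large-subunit, and 0.37 and 0.29 for snoRNP factors. Small- and large-subunit medians thus lay close together, and without replicate 1 of experiment 1 of dCas9-VP160 their order turned (0.47 and 0.48). These medians are descriptions of the roles, and the differences between roles were not tested.

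The share of mitochondrially encoded genes was lower in both transfected groups than without plasmid. With those genes left out of the table, 41 members were higher with dCas9-VP160 alone and 41 with guides. As a share of all gene counts, the 47 members held 0.614% ± 0.00728 with guides, 0.641% ± 0.0157 with dCas9-VP160 alone and 0.484% ± 0.0152 without plasmid (SD, n = 2 experiments). In such bulk samples, more RNA per cell and more cells that express a gene cannot be told apart.

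**Figure D1:**
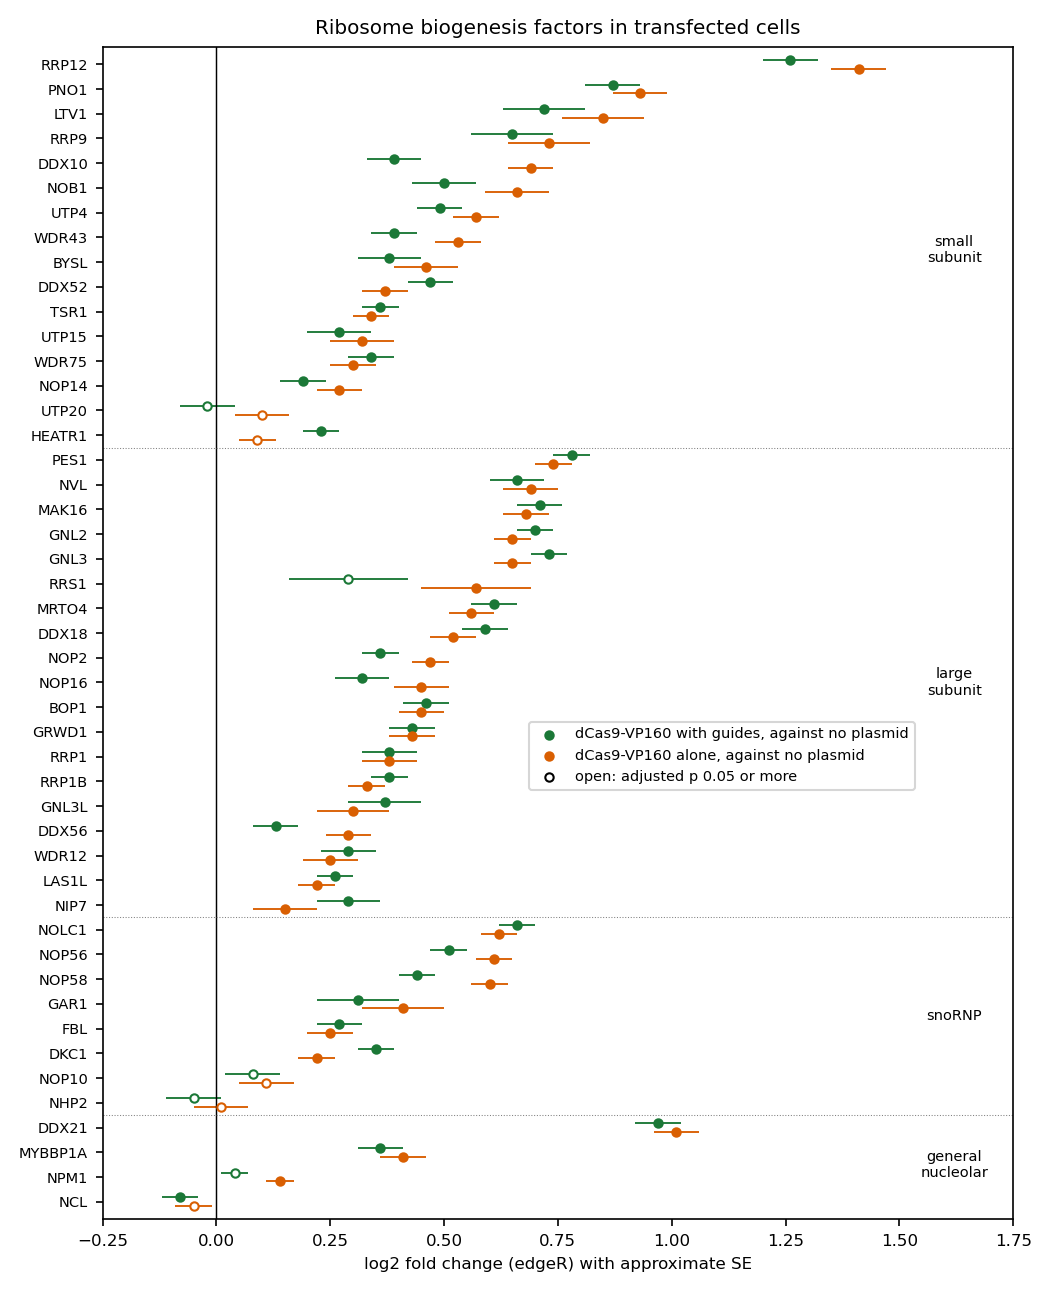
Log2 fold change (horizontal axis, edgeR) of each of the 47 factors, for dCas9-VP160 with guides (green) and dCas9-VP160 alone (orange) against no plasmid, with approximate SE as bars, grouped by role; open points had an adjusted p of 0.05 or more. RRP12 at 1.26 and 1.41 stands furthest to the right in both comparisons, and NCL lies just left of 0.

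RRP12, a HEAT-repeat protein needed in yeast for maturation and nuclear export of pre-ribosomal subunits, rose most. In experiments 1 and 2 it had 83.2 and 72.7 CPM with guides, 93.1 and 79.5 with dCas9-VP160 alone, and 33.6 and 31.4 without plasmid. The separate technical replicates gave 72.5 to 87.1 CPM with guides, 76.7 to 93.7 with dCas9-VP160 alone and 29.9 to 34.9 without plasmid. Every transfected library was thus above every library without plasmid. The log2 fold change was 1.41 with dCas9-VP160 alone (SE 0.06, adjusted p = 9.53e-17, a 2.65-fold level) and 1.26 with guides (SE 0.06, adjusted p = 1.22e-15, a 2.40-fold level). RRP12 (ENSG00000052749) spans chromosome 10, 97356358 to 97426076, on the minus strand of GRCh38, and its exons overlap those of an antisense gene, AL355490.2, whose reads cannot be separated without strand. It was the only member among the 97 genes of the authors' deposited table, which gives it log2 fold changes of 1.253 for control and guides (adjusted p = 0.04522) and 1.386 for control and dCas9-VP160 (adjusted p = 1.474e-05). In the authors' deposited table the Wald statistics of all 97 genes in both comparisons equal the absolute log2 fold change less 1, divided by its SE (within 0.02), so those p-values refer to a change beyond 2-fold, unlike the p-values against no change given elsewhere.

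Next among small-subunit factors were PNO1 and LTV1, which act late, on the precursor of the small subunit. PNO1, the RNA-binding partner of the nuclease NOB1, had 66.9 and 73.2 CPM with guides, 70.4 and 75.9 with dCas9-VP160 alone, and 35.2 and 41.6 without plasmid. Both transfected groups lay well above the cells without plasmid, with log2 fold changes of 0.93 with dCas9-VP160 alone (SE 0.06, adjusted p = 6.25e-13, a 1.90-fold level) and 0.87 with guides (SE 0.06, adjusted p = 2.81e-12). LTV1, which holds a small-subunit protein in place until late in assembly, had 28.7 and 30.7 CPM with guides, 27.8 and 37.4 with dCas9-VP160 alone, and 17.4 and 18.7 without plasmid. Its experiments differed more, yet the groups with and without plasmid did not overlap, and the log2 fold change was 0.85 (SE 0.09, adjusted p = 4.71e-09) with dCas9-VP160 alone and 0.72 with guides.

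The late factors as a group of 6 (RRP12, PNO1, NOB1, LTV1, TSR1 and BYSL) had a median log2 fold change of 0.76 with dCas9-VP160 alone, and all 6 were higher. NOB1, which makes the last cut at the 3′ end of 18S rRNA, was higher by 0.66, BYSL, a bystin-family assembly factor, by 0.46, and TSR1, a GTPase-like factor on the late precursor, by 0.34. The 5 early factors that bind the nascent transcript (UTP4, UTP15, HEATR1, WDR43 and WDR75) had a median of 0.32, and 4 of them were higher, among them UTP4 at 0.57 and WDR43 at 0.53. With guides the medians were 0.61 for the late and 0.34 for the early factors. Both groups were formed with these values known, so the gap between them carries no test.

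The other small-subunit factors ranged widely. RRP9, a protein of the U3 snoRNP, was higher by 0.73 with dCas9-VP160 alone and by 0.65 with guides. The helicase DDX10 was higher by 0.69 and 0.39, the helicase DDX52 by 0.37 and 0.47, and NOP14, a processome scaffold protein, by 0.27 and 0.19 in the same order. UTP20, a large scaffold protein of the processome, had 47 and 45.5 CPM with guides, 50.4 and 50.2 with dCas9-VP160 alone, and 45 and 49.1 without plasmid, and was not called (log2 fold change 0.10 with dCas9-VP160 alone, adjusted p = 0.206). HEATR1 likewise missed the threshold with dCas9-VP160 alone (0.09, adjusted p = 0.066; called in 3 of 23 alternatives) but was higher with guides (0.23, SE 0.04, adjusted p = 4.45e-05).

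Among large-subunit factors PES1 had the largest change. It forms the PeBoW complex with BOP1 and WDR12, which is needed to process the precursor of 28S and 5.8S rRNA. PES1 had 224 and 198.7 CPM with guides, 216.5 and 192.5 with dCas9-VP160 alone, and 127.3 and 118 without plasmid. The lowest transfected library was above the highest without plasmid, and the log2 fold change was 0.74 (SE 0.04, adjusted p = 4.89e-14, a 1.67-fold level) with dCas9-VP160 alone and 0.78 (SE 0.04, adjusted p = 1.04e-14) with guides. Its partners moved less, BOP1 by 0.45 and WDR12 by 0.25 with dCas9-VP160 alone, so the 3 subunits did not change by one factor. PES1 exons overlap those of TCN2 on the other strand.

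NVL, an AAA-type ATPase that remodels large-subunit precursors, had 94.5 and 97.8 CPM with guides, 88.1 and 108.4 with dCas9-VP160 alone, and 58.2 and 63.6 without plasmid (log2 fold change 0.69 with dCas9-VP160 alone, SE 0.06, adjusted p = 8.95e-11, and 0.66 with guides). MAK16, an early large-subunit assembly factor, had 85.6 and 94.8 CPM with guides, 81.8 and 95.5 with dCas9-VP160 alone, and 53 and 57.5 without plasmid (0.68, SE 0.05, adjusted p = 3.46e-11, and 0.71 with guides). Both were higher in each summed transfected library than in either one without plasmid. The nucleolar GTPases GNL2 and GNL3 (nucleostemin) each rose by 0.65 with dCas9-VP160 alone, and by 0.70 and 0.73 with guides, while GNL3L rose by 0.30 and 0.37. GNL3 was among the more abundant factors, with 228.6 and 268.2 CPM with guides, 215.1 and 254.2 with dCas9-VP160 alone and 135.4 and 163.8 without plasmid.

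Of the rest of the large-subunit set, RRS1, which helps to bring the 5S particle into the subunit, was higher by 0.57 with dCas9-VP160 alone (SE 0.12, adjusted p = 0.000372), and with guides its 0.29 missed the threshold (adjusted p = 0.064). RRS1 was the least abundant member, with 9.73 and 9.32 CPM with guides, 11 and 12.2 with dCas9-VP160 alone, and 6.83 and 8.85 without plasmid. MRTO4, which holds the place of the stalk protein P0, was higher by 0.56, the helicase DDX18 by 0.52, the rRNA methyltransferase NOP2 by 0.47, NOP16 by 0.45 and GRWD1, a chaperone of a large-subunit protein, by 0.43. RRP1 and its paralog RRP1B followed at 0.38 and 0.33. The smallest rises were those of the helicase DDX56 (0.29), LAS1L (0.22), a subunit of the nuclease that cuts between the 5.8S and 28S parts, and NIP7 (0.15, SE 0.07, adjusted p = 0.0497), the last of which rests just inside the threshold. With guides NIP7 was higher by 0.29 (adjusted p = 0.000601).

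Among snoRNP factors, the shared chaperone and a pair of box C/D core proteins rose most. NOLC1 (Nopp140), a phosphoprotein that escorts both kinds of snoRNP, had 320.8 and 297.4 CPM with guides, 303.4 and 300.9 with dCas9-VP160 alone, and 199 and 193 without plasmid (log2 fold change 0.62, SE 0.04, adjusted p = 2.97e-13, with dCas9-VP160 alone). NOP56, a core box C/D protein, had 370.8 and 381 CPM with guides, 391.2 and 414.6 with dCas9-VP160 alone, and 259.4 and 270.4 without plasmid (0.61, SE 0.04, adjusted p = 1.23e-13). NOP58, its paralog in the same particle, had 156.1 and 176.6 CPM with guides, 169 and 203.6 with dCas9-VP160 alone, and 109.1 and 137.5 without plasmid (0.60, SE 0.04, adjusted p = 1.22e-11). All 3 were higher in the transfected groups in both experiments. For NOP56, and by more for NOP58, experiment 2 was also higher than experiment 1 in every group. FBL (fibrillarin), the methyltransferase of the box C/D particle, rose by only 0.25 with dCas9-VP160 alone and 0.27 with guides.

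In the box H/ACA particle, 2 of 4 core proteins were higher with dCas9-VP160 alone, with a median log2 fold change of 0.16. The 3 box C/D core proteins among the members had a median of 0.60, and with SNU13, the fourth core protein of that particle, which is no member and was lower (-0.18), it was 0.42. DKC1 (dyskerin), the pseudouridine synthase, was higher by 0.22 (SE 0.04, adjusted p = 9.53e-05) and GAR1 by 0.41 (adjusted p = 0.000454). NHP2 had 152.3 and 122.4 CPM with guides, 157.2 and 129.4 with dCas9-VP160 alone, and 141.5 and 141.6 without plasmid, so the transfected libraries lay above the others in experiment 1 and below them in experiment 2. NOP10 had 61.4 and 74.7 CPM with guides, 68.4 and 70.6 with dCas9-VP160 alone, and 59.9 and 68.8 without plasmid. Neither was called (adjusted p = 0.894 for NHP2 and 0.116 for NOP10 with dCas9-VP160 alone), though NOP10 was called without replicate 1 of experiment 2 of the cells without plasmid (0.14, adjusted p = 0.0408). With guides the medians were 0.20 for the H/ACA core, 0.44 for the C/D core and 0.36 for the C/D core with SNU13, and this split too was made with the values known.

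DDX21, a DEAD-box helicase that binds rRNA and snoRNAs and acts with both RNA polymerase I and II, was the only member besides RRP12 that was more than 2-fold higher with dCas9-VP160 alone. It had 148.6 and 153 CPM with guides, 145.3 and 165.3 with dCas9-VP160 alone, and 69.1 and 85.6 without plasmid. The groups with and without plasmid were far apart, with log2 fold changes of 1.01 (SE 0.05, adjusted p = 8.23e-15, a 2.01-fold level) for dCas9-VP160 alone and 0.97 (SE 0.05, adjusted p = 1.68e-14) with guides. MYBBP1A, a nucleolar protein that binds MYB and takes part in rRNA synthesis and processing, had 100.1 and 87.7 CPM with guides, 107.9 and 87.7 with dCas9-VP160 alone, and 80.4 and 66.3 without plasmid (0.41, SE 0.05, adjusted p = 1.11e-07).

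The most abundant pair, NCL and NPM1, changed little. NCL (nucleolin), a histone-chaperone-like protein of the dense part of the nucleolus, had 568.1 and 607.9 CPM with guides, 556.7 and 649.9 with dCas9-VP160 alone, and 577.4 and 672 without plasmid. Within each experiment both transfected libraries were below the one without plasmid, but the groups overlapped across experiments, and its log2 fold change was -0.05 with dCas9-VP160 alone (adjusted p = 0.244). With guides it was -0.08 (SE 0.04, adjusted p = 0.049), just inside the threshold. That call was lost in 16 of 23 alternatives, DESeq2 among them. NPM1 (nucleophosmin), which surrounds the dense part, had 469.1 and 569.2 CPM with guides, 501.4 and 614.9 with dCas9-VP160 alone, and 445 and 567.6 without plasmid. NPM1 was higher by 0.14 with dCas9-VP160 alone (SE 0.03, adjusted p = 0.000863), and with guides its 0.04 was not called (adjusted p = 0.342). NPM1 also has 45 named pseudogenes, with which its reads can be shared.

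**Figure D2:**
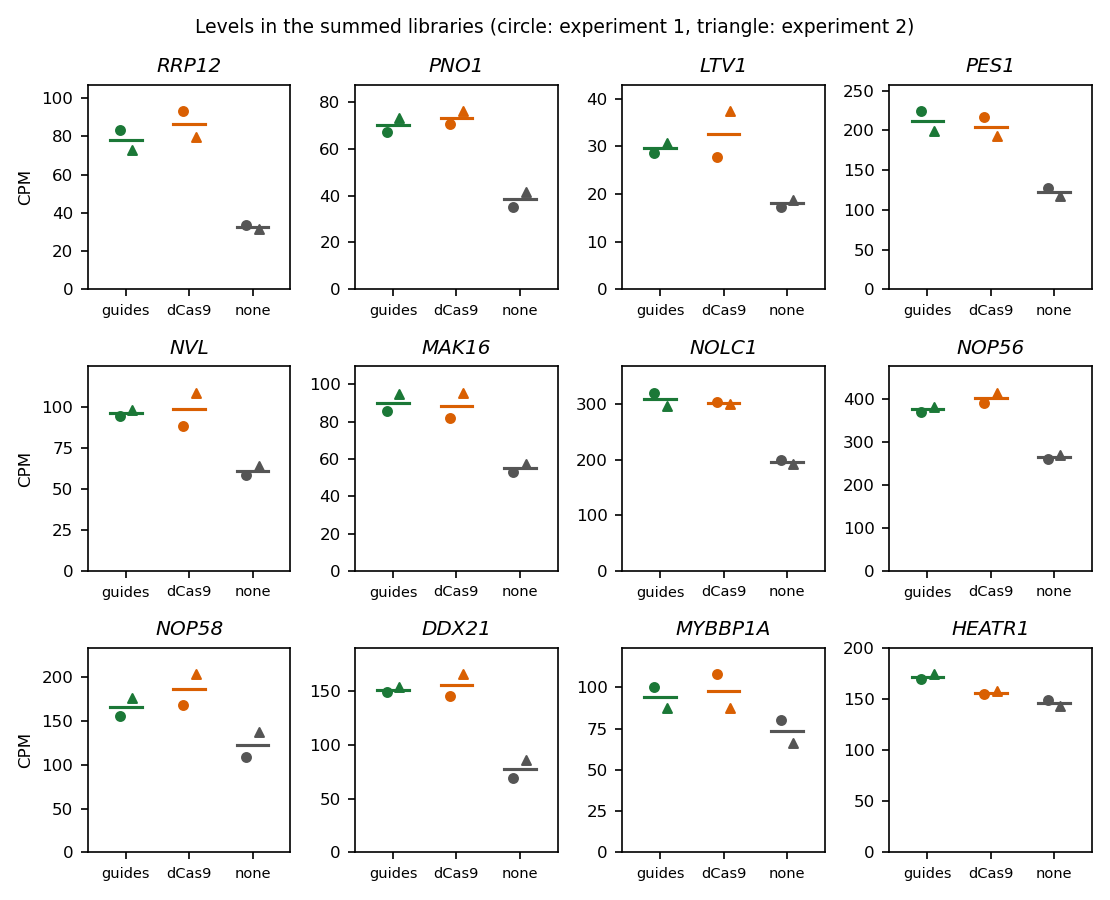
CPM (vertical axes, each starting at 0) of 12 factors in the 6 summed libraries, for dCas9-VP160 with guides, dCas9-VP160 alone and no plasmid; circles are experiment 1, triangles experiment 2 and lines the mean. RRP12 and DDX21 lie highest above the cells without plasmid in relative terms, whereas HEATR1 differs little between dCas9-VP160 alone and no plasmid.

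With guides, 41 of the 47 factors were higher than without plasmid, 1 was lower (NCL) and 5 were not called, where 26.7% of all tested genes were called higher and 25.9% lower. Among genes with at least the mean CPM of the lowest member, 36.4% were called higher. The median log2 fold change of the members was 0.38, beside -0.02 over all tested genes. By role, 15 of 16 small-subunit factors (median 0.39), 18 of 19 large-subunit factors (0.38) and 6 of 8 snoRNP factors (0.33) were higher, as were 2 of the 4 general nucleolar proteins (0.20). Among these higher calls, that on DDX56 (0.13) was lost in 7 of 23 alternatives, and those on GAR1 (0.31) and NOP14 (0.19) in 5 each. In experiment 1 the medians were 0.41 for small-subunit, 0.42 for large-subunit and 0.42 for snoRNP factors, and in experiment 2 they were 0.43, 0.41 and 0.34, so the order of the roles was not the same in both. Of the members, 40 were higher in both transfected groups, but both comparisons use the same cells without plasmid, so they are not independent of each other. Of the 38 members with a matched promoter, those with an E-box had median log2 fold changes of 0.53 (dCas9-VP160 alone) and 0.39 (guides). Those without one had 0.32 and 0.34. Members without a matched promoter, which rose by 0.33 (RRP1B) to 1.41 (RRP12) with dCas9-VP160 alone, are in neither set. Of the 15 with an E-box 8 are small-subunit factors, and the difference between the sets was not tested. Of the 15 with an E-box 13 were higher with dCas9-VP160 alone, as were 20 of the 23 without one.

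The response was also compared between the 2 batches of cells, by the interaction of group and experiment in an edgeR fit on the 12 separate libraries. The spread of that fit is that between technical replicates, so its p-values do not measure variation among batches of cells. No member was called for dCas9-VP160 alone (smallest adjusted p = 0.851; 1 member at an unadjusted p under 0.05) or for guides against no plasmid (smallest adjusted p = 1; 3 members). Over all genes in that fit 0.0111% and 0% were called. The largest absolute difference of a member's log2 fold change between experiments in that fit was 0.33 for dCas9-VP160 alone (LTV1) and 0.45 for guides (GAR1).

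Few of these factors differed between dCas9-VP160 with guides and dCas9-VP160 alone. The plasmid total was the same in these groups and its division is not stated, so the amount of dCas9-VP160 plasmid may also differ. This comparison therefore cannot tell an effect of the guides from one of that amount. Below, guides added is only a name for it. Called were 5 of 47, of which 2 were higher and 3 lower, where 4.16% of all tested genes were called higher and 3.41% lower. With so few calls near those shares, the members are not set apart from other genes in this comparison. The median log2 fold change was -0.03, and by role it was -0.08 for small-subunit, 0.04 for large-subunit, -0.05 for snoRNP and -0.05 for general nucleolar factors. The other 42 members had log2 fold changes between -0.28 and 0.13.

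DDX10, a helicase of the small-subunit processome, had the largest difference. It had 60.7 and 70.7 CPM with guides, against 74 and 87.6 with dCas9-VP160 alone, while cells without plasmid had 45.8 and 54.2. Within each experiment the guide library was the lower one, by a log2 fold change of -0.29 in experiment 1 and -0.31 in experiment 2 (-0.30 in the fit, SE 0.05, adjusted p = 0.000692). In the separate technical replicates of experiment 1 DDX10 had 58.8 and 62.2 CPM with guides, against 74 and 73.7 with dCas9-VP160 alone, and in those of experiment 2 it had 69.5 and 72.4 against 92.2 and 84. Its level with guides was thus below that with dCas9-VP160 alone and above that without plasmid in both experiments. Whether the amount of dCas9-VP160 plasmid had a part in this was not tested. Without replicate 1 of each pair the call on DDX10 was lost (adjusted p = 0.109), as it was in experiment 1 alone (adjusted p = 0.0511) and without the experiment as a block (adjusted p = 0.633).

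The other 4 differences were smaller, with adjusted p-values near the threshold. DDX56 had 123 and 113.6 CPM with guides, against 133.9 and 131.1 with dCas9-VP160 alone (log2 fold change -0.16, SE 0.05, adjusted p = 0.0325). For NOP58, whose values are given above, it was -0.16 (SE 0.04, adjusted p = 0.0224). HEATR1, an early processome factor needed for transcription of the rRNA genes, had 169.6 and 174.1 CPM with guides, against 154.3 and 157.8 with dCas9-VP160 alone (0.14, SE 0.04, adjusted p = 0.0433). DKC1 had 178.2 and 173.8 CPM with guides, against 161.5 and 158.4 with dCas9-VP160 alone (0.14, SE 0.04, adjusted p = 0.0406). Each pointed the same way in both experiments. Yet over the 23 alternatives HEATR1 and DKC1 each lost the call in 14, DDX56 in 12 and NOP58 in 11. With DDX10, which lost it in 3, 54 of 115 tests of the 5 genes lost the call. Among guide libraries the mitochondrial share was 5.57% and 5.59% in technical replicate 1 and 7.50% and 7.44% in replicate 2, so the replicates of this group are not alike, and its part in these small differences was not tested.

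**Figure D3:**
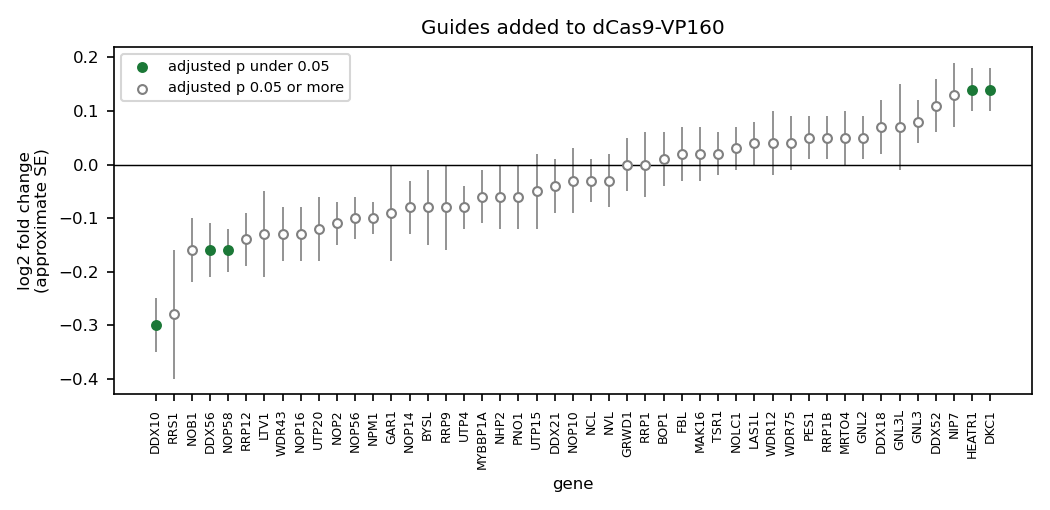
Log2 fold change (vertical axis, edgeR, with approximate SE) of each of the 47 factors for dCas9-VP160 with guides against dCas9-VP160 alone, ordered by value; filled points had an adjusted p under 0.05. DDX10 lies lowest at -0.30, and the highest points, HEATR1 and DKC1, reach 0.14.

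Levels were compared between genes as CPM per kilobase of exon, the exons being the union over all transcripts of a gene in GENCODE v29, which understates genes with long rarely used exons. On that scale the median snoRNP factor stood at 63.4 with guides, 65.6 with dCas9-VP160 alone and 48.4 without plasmid. The median large-subunit factor stood at 24.3, 23.8 and 18.9, and the median small-subunit factor at 18.1, 17.4 and 14.0, in the same order of groups. The general nucleolar proteins had a median of 57.4, 59.0 and 52.8. NPM1 was highest, with 135.6, 145.8 and 132.3 CPM per kilobase, followed by NOP10 with 122.8, 125.5 and 116.2; neither changed by more than 0.14 on the log2 scale in any comparison with the cells without plasmid. RRP12, which changed most, was the lowest member without plasmid at 3.81 CPM per kilobase, against 9.14 with guides and 10.1 with dCas9-VP160 alone.

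**Figure D4:**
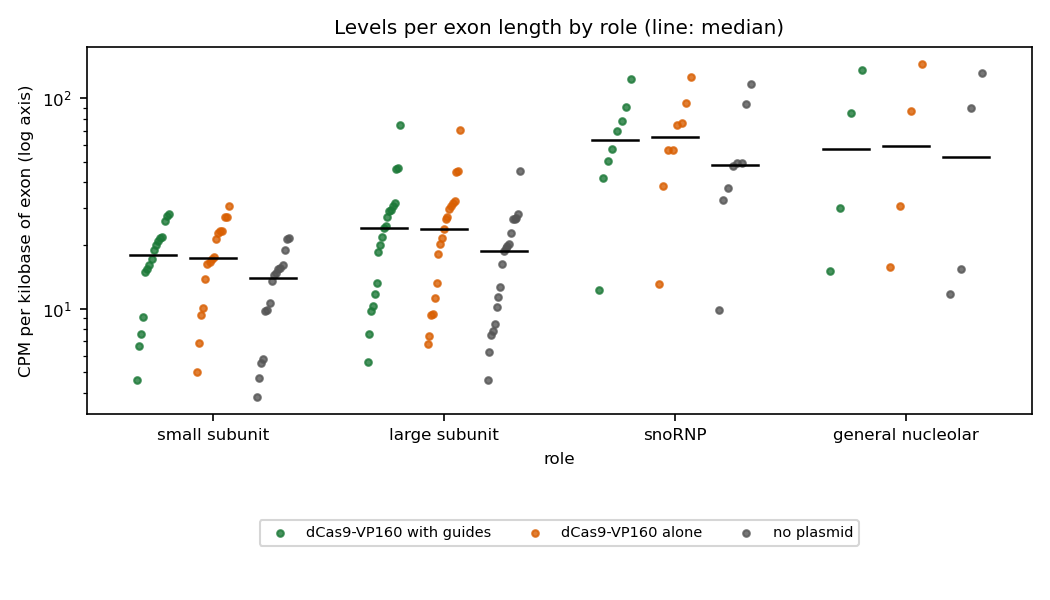
CPM per kilobase of exon (vertical axis, log scale; mean of 2 experiments) of each factor by role, for dCas9-VP160 with guides, dCas9-VP160 alone and no plasmid; lines are medians. The snoRNP medians (63.4, 65.6 and 48.4) lie above the small-subunit medians (18.1, 17.4 and 14.0) in every group.

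Further genes of the same pathway, listed by role with earlier results of these data known, were mostly higher too. Over all tested genes 26.6% were called higher and 24.6% lower with dCas9-VP160 alone. With dCas9-VP160 alone 32 of 44 further small-subunit genes were higher and 1 lower (median log2 fold change 0.31), 37 of 44 further large-subunit genes were higher and 0 lower (0.43), and 9 of 11 further snoRNP genes were higher and 1 lower (0.34). The largest rises among small-subunit genes were those of the helicase DHX37 (0.95, SE 0.11, adjusted p = 2.53e-08) and of UTP14A, whose yeast counterpart activates that helicase (0.93, SE 0.07, adjusted p = 6.38e-11). Among large-subunit genes they were ZNF622, which acts on the cytoplasmic precursor (0.93, SE 0.05, adjusted p = 2.68e-14), and EBNA1BP2 (0.90, SE 0.05, adjusted p = 5.48e-15). Among snoRNP genes they were NUFIP1, an assembly factor (0.66, SE 0.09, adjusted p = 1.46e-06), and RUVBL1, an ATPase of the assembly machinery (0.50, SE 0.04, adjusted p = 9.72e-11). FCF1, a processome protein, fell by 0.52 (SE 0.11, adjusted p = 0.000163), and SNU13, which binds the kink-turn of box C/D RNAs, fell by 0.18 (SE 0.04, adjusted p = 0.00108).

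With guides against no plasmid, the further small-subunit genes were higher in 30 and lower in 3 of 44 cases (median 0.34), the large-subunit genes in 33 and 2 of 44 (0.38) and the snoRNP genes in 7 and 1 of 11 (0.37). Over all tested genes 26.7% were called higher and 25.9% lower in this comparison. RPF2, a partner of RRS1, had the largest rise at 1.05, followed by ZNF622 at 0.99. The kinases RIOK3 and RIOK1, of which RIOK1 acts on the late small subunit, rose by 0.87 and 0.80, and the snoRNP assembly genes RPAP3 and RUVBL1 by 0.62 and 0.45. The largest falls for the small subunit were those of DDX47 (-0.51) and FCF1 (-0.37), and TBL3 (-0.20) was the third gene called lower. DDX47 was at a low level, with 3.82 and 2.42 CPM with guides and 4.07 and 4.94 without plasmid. Its log2 fold change was -0.09 in experiment 1 and -1 in experiment 2 (adjusted p = 0.0371 in the fit). Exons of DDX47 overlap those of APOLD1 on the same strand, and FCF1 has 10 named pseudogenes. For the large subunit the large AAA ATPase MDN1 (-0.25) and WDR18 (-0.21) fell, as did SNU13 (-0.26) for the snoRNPs. Between guides and dCas9-VP160 alone 1 further small-subunit gene was higher (DCAF13, 0.22) and 1 lower (DHX37, -0.41). Of the large-subunit genes 1 was higher (RPF2, 0.17) and 2 were lower (PELP1, -0.24, and SURF6, -0.18), and no snoRNP gene was called. Over all tested genes 4.16% were called higher and 3.41% lower, so these few calls do not set the lists apart from other genes.

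Several members can share reads with other genes or hold other genes within them. Exons of 17 members overlap those of an antisense gene by at least 50 bases, exons of 5 overlap a gene on the same strand, and 11 have named pseudogenes. Within the spans of 7 members (WDR43, TSR1, GNL3, NOP56, NOP58, DKC1 and NCL) lie 25 annotated snoRNA genes. Values of these members are uncertain to the extent that the counting assigned such reads to them.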

How the data were processed

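The authors deposited raw counts of reads for each gene and library, and per the submitters' processing notes used Trim Galore 0.3.7, STAR 2.6.0c on hg38, Picard 2.17.1 and DESeq2 1.16.1. Neither counting program nor annotation release is given in the sources used here. Libraries were made from 1 ng of RNA with SMART-Seq HT and Nextera XT, per the labels. These kits do not mark the strand, although the submitters' design text speaks of a directional library. The strand setting of the counting is not given. A second deposited table of 97 genes gives, per the file headers, a mean normalised signal (baseMean), log2 fold changes, a Wald score and p-values.

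The members and lists were chosen with earlier results of these data known. The 2 technical replicates were summed to 6 libraries, and edgeR 4.0.16 under R 4.3.3 was used for testing (robust quasi-likelihood fit, TMM, filterByExpr) with experiment as a block and Benjamini-Hochberg adjustment over 19662 genes. Per the labels, libraries of 1 experiment come from the same batch of cells, and differences between experiments correlated across 12875 genes at 0.616 to 0.631 in the 3 pairs of groups. P-values rest on 2 residual degrees of freedom and a median prior of 24, and describe these 2 experiments. SE is the absolute log2 fold change over the square root of F. Within-experiment fold changes used a prior count of 2. CPM of members, further genes and CD34 are TMM-normalised. Marker CPM, given over the 6 summed libraries, and the limits from 3 counts use raw library totals. Those limits cover counting error only. Spike-ins (92 rows) were left out. Named genes were the 3 largest called changes per role with dCas9-VP160 alone (2 for general nucleolar), the 5 largest called with guides added, and the 2 largest rises and falls per further list. Other members are given by log2 fold change or, where singled out, were chosen after their values were seen, as was the promoter search. Alternatives were DESeq2 1.42.0, RLE size factors, other filters, no block, unsummed libraries, no mitochondrial genes, each experiment alone and each replicate left out.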

Additional observations from a re-analysis of the deposited data

Results flagged for a closer look

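In 8 of the 47 × 3 sets of 4 libraries, 1 library lay apart from the other 3 by Dixon's ratio of gap to range (above its 95% critical value). For 4 independent libraries chance gives about 1 in 20 sets. Each set here held 2 technical replicates from each of 2 experiments, so that rate need not hold. Among guide libraries, replicate 1 of experiment 2 was high for WDR75 (98.7 CPM, against 80.7, 83.2 and 83.3; ratio 0.846), and replicate 1 of experiment 1 was high for BOP1 (120.1, against 93.7, 95 and 97; 0.861) and low for NCL (530.7, against 601, 604.6 and 613.3; 0.86). Among libraries with dCas9-VP160 alone, replicate 2 of experiment 1 was high for DDX56 (139.5, against 129.9, 130.9 and 131; 0.88) and replicate 2 of experiment 2 was low for DKC1 (155.7, against 161, 161.5 and 161.5; 0.904). Among libraries without plasmid, replicate 2 of experiment 1 was high for RRP9 (16.7, against 15.1, 15.1 and 15.2; 0.91) and low for WDR12 (51.3, against 58.4, 58.9 and 59.1; 0.911), and replicate 1 of experiment 1 was high for GNL3L (23.2, against 18.6 in each of the others; 0.987).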

How the results depend on the processing

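Over 23 alternatives, 31 of the 42 members higher with dCas9-VP160 alone were called in each, and 11 lost the call in at least 1 (DDX18, DKC1, FBL, GAR1, GNL3L, LAS1L, NIP7, NOP14, NPM1, UTP15 and WDR12). With guides 32 of the 41 higher members kept the call and 9 lost it (DDX18, DDX56, GAR1, GNL3L, MYBBP1A, NIP7, NOP14, NOP16 and UTP15). The number of members higher with dCas9-VP160 alone ranged from 32 to 43. Without the replicate block, 32 members were higher with dCas9-VP160 alone, 36 with guides, 0 were lower with guides, and 0 were higher and 0 lower between guides and dCas9-VP160 alone. The single lower call with guides (NCL) was 0 with RLE size factors, DESeq2, no filter, mitochondrial genes left out and experiment 1 alone, and 2 in experiment 2 alone. When guides were added, members higher and lower were 0 and 1 with DESeq2, 0 higher without the filter, 0 and 0 in experiment 1 alone and 0 and 1 in experiment 2 alone. With one replicate or replicate number left out, they ranged from 0 to 2 higher and 0 to 5 lower, and the lower count with guides against no plasmid from 0 to 1. In those fits medians ranged as follows. With dCas9-VP160 alone, small-subunit factors had 0.46 to 0.54 and general nucleolar factors 0.25 to 0.31. With guides, the medians were 0.37 to 0.45 for small-subunit, 0.38 to 0.45 for large-subunit, 0.30 to 0.40 for snoRNP, 0.15 to 0.25 for general nucleolar and 0.37 to 0.43 for all factors. Between guides and dCas9-VP160 alone they were -0.10 to -0.04 for small-subunit, -0.03 to 0.06 for large-subunit and -0.05 to 0.01 for snoRNP factors. In experiment 1 alone the large-subunit median was 0.51 with dCas9-VP160 alone and 0.42 with guides, the snoRNP median 0.41 and that of all factors 0.40 with guides, and with guides added the snoRNP median was -0.06 and that of all factors 0.02. In experiment 2 alone the small-subunit median was 0.43 and the large-subunit one 0.40 with guides, and with guides added the large-subunit median was 0.02 and the general nucleolar one -0.10. The large-subunit median with guides was 0.37 on 12 unsummed libraries, and the snoRNP median with guides added was -0.04 with RLE size factors. Uncalled members changed sign with dCas9-VP160 alone: NHP2 had 0 on unsummed libraries, -0.09 without replicate 2, -0.04 and -0.01 without replicate 2 of experiment 1 or 2 of the cells without plasmid, -0.01 without replicate 2 of experiment 1 of dCas9-VP160, and -0.14 in experiment 2 alone; without replicate 1 HEATR1 had -0.02 and UTP20 -0.06, and UTP20 had 0 without replicate 1 of experiment 1 of dCas9-VP160. Over the fits that left out a replicate, the highest values were 0.10 for NHP2, 0.20 for HEATR1 and 0.24 for UTP20, and without replicate 2 HEATR1 and UTP20 were called (adjusted p = 0.00518 and 0.0263). HEATR1 was called in 2 further fits (0.12, adjusted p = 0.0224, and 0.13, adjusted p = 0.0143, without replicate 2 of experiment 1 of no plasmid or of dCas9-VP160), and NOP10 in 1 (0.14, adjusted p = 0.0408). The cause of these shifts was not tested. Over all genes, 10070 were called with dCas9-VP160 alone, 10347 with guides and 1487 with guides added, against 6174, 6647 and 360 by DESeq2 and 5564, 6098 and 1 without the block. With guides added the count was also 417 and 792 without replicates 1 and 2, 901 without replicate 1 of experiment 1 of guides, 723 without replicate 2 of experiment 2 of no plasmid, and 446 and 292 in experiments 1 and 2 alone. RRS1, the member with the fewest counts, had the largest SE (0.12 with dCas9-VP160 alone), and NPM1, among the most abundant, the smallest (0.03).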
